A study of Mus musculus with 12 samples.

Results

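All collagen chain genes on the arrays were followed here in mouse vessels over 7 days of angiotensin II. A gene was taken as a member when a transcript cluster, the feature that stands for a gene on this array design, carried a single symbol made of Col, a number, a and a number. That gave 43 genes of 30702 with a symbol, each in a single transcript cluster: 11 fibrillar chains, 9 fibril-associated chains (FACIT), 6 chains of type IV, 6 of type VI, 3 of network collagens, 4 transmembrane chains, 2 multiplexins and 2 others. The cluster of Col7a1 also carries Mir711 and was left out, and Col21a1 is not among the symbols.

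Collagens are secreted matrix proteins in which chains wind around each other into a long helix. Fibrillar chains form the rope-like fibrils that bear tension in the outer and middle layers of a vessel, and FACIT chains sit on the surface of those fibrils. Type IV chains build the sheet of the basement membrane under the endothelium and around each smooth muscle cell, and network and type VI chains form lattices and beaded filaments beside them. Angiotensin II is a peptide hormone that constricts vessels and raises blood pressure, and matrix deposition is a known part of the vessel's reaction to it.

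The mice were C57BL/6 males of 8 to 10 weeks. At day 0 they had no angiotensin II, and the other groups received angiotensin II at 1500 ng/kg/min from an osmotic pump for 1, 3 or 7 days, dissolved in Ringer's solution. The sources used here do not name the vessel, nor say whether day 0 mice carried a pump. Each day had 3 arrays described as biological replicates, so p-values measure the spread between these samples. All values are log2 signals as deposited, and differences are log2 changes ± SE from limma. A gene was called when its Benjamini-Hochberg adjusted p over all 22066 genes tested was under 0.05. Of the 43 members 41 passed the filter on dim genes (at least 3 of 12 arrays at a log2 signal of 5.25), and Col17a1 and Col26a1 did not, with all their values between 4.78 and 5.21.

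The arrays of one day correlated at 0.969 to 0.993, and arrays of different days at 0.916 to 0.990. None of the 11 smooth muscle and 10 endothelial markers lay under the median of the negative control features on all arrays of a day, and on single arrays Lmod1, Myocd and Cldn5 did, all on day 7 replicate 2. The mean of the 11 smooth muscle markers was lower at the treated days and ranged over 14.21 to 14.34 at day 0, 11.97 to 13.80 at day 1, 11.30 to 12.46 at day 3 and 8.56 to 11.45 at day 7, and 10 of the 11 fell at day 7. The mean of 11 macrophage markers ranged over 7.60 to 7.96 at day 0, 9.13 to 9.57 at day 1, 9.07 to 9.58 at day 3 and 8.53 to 9.63 at day 7. The mean of 11 fibroblast markers overlapped at day 0 and day 7, with 9.65 to 10.39 at day 0, 10.27 to 10.44 at day 1, 10.34 to 10.54 at day 3 and 10.003 to 10.52 at day 7. That mean covers opposite moves. Of 10 fibroblast markers tested, Lum and Pdgfrl rose and Gsn and Clec3b fell at day 7, with changes from -2.15 to 3.10 over the list. Dcn had the same value on 10 of the 12 arrays. In whole vessels, a change in the number of cells of a type and a change in RNA per cell cannot be told apart. The gap between the positive and negative control features was 2.59 ± 0.05 before infusion, 2.25 ± 0.29 after 1 day, 1.98 ± 0.14 after 3 days and 1.76 ± 0.49 after 7 days (SD, n = 3). Each treated day lay below day 0 without overlap (exact two-sided permutation test, p = 0.1, the smallest that 3 against 3 allows).

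Promoter sequences are shown for 6 chains that carry the patterns described further on: Col1a2 and Col3a1, fibrillar chains that rose at day 7; Col8a1 and Col6a3, which rose at every treated day; and Col4a5 and Col4a6, type IV chains that fell and whose starts lie 1343 bases apart on opposite strands. Each is the 250 bases before the start of the gene in RefSeq (GRCm38.p6), written 5′ to 3′ on the gene's strand. Capitals mark matches on either strand to the letters TATAAA of the TATA box, to the letters CCAAT, to the letters GGGCGG of the GC box, to the letters TGANTCA of the AP-1 site or to the CArG box.
Col1a2 (chr6:4505368-4505617, plus strand): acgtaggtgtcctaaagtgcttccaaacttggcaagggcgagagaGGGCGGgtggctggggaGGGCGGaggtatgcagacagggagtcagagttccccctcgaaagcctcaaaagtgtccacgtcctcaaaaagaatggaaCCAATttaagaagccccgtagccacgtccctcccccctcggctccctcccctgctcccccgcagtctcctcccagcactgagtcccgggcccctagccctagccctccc
Col3a1 (chr1:45311288-45311537, plus strand): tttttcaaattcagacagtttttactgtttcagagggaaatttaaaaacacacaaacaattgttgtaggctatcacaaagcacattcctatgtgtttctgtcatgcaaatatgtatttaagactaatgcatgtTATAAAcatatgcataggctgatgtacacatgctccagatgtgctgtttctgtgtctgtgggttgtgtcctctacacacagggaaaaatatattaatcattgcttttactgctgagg
Col8a1 (chr16:57754738-57754987, minus strand): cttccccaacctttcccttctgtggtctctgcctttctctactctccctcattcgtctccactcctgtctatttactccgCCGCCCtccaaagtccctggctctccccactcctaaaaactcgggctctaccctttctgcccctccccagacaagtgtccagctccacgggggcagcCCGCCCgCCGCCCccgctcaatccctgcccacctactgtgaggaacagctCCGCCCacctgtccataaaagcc
Col6a3 (chr1:90843972-90844221, minus strand): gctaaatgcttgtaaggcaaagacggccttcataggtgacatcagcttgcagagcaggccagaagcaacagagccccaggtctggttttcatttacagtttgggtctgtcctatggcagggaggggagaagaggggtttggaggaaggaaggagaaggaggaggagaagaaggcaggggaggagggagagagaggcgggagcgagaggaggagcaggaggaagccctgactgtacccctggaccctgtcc
Col4a5 (chrX:141475169-141475418, plus strand): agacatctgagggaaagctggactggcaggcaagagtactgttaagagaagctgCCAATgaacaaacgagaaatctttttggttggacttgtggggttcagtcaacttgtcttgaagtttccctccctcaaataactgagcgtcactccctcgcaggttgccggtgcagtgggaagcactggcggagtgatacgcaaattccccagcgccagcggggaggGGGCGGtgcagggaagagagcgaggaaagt
Col4a6 (chrX:141474077-141474326, minus strand): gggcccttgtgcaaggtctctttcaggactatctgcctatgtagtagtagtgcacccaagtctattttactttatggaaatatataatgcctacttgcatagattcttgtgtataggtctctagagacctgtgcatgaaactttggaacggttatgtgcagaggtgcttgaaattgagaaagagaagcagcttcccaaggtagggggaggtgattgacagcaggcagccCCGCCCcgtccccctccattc
Upstream of Col1a2 stood 2 GC boxes and 1 CCAAT box, upstream of Col8a1 4 GC boxes on the other strand, and upstream of Col3a1 1 TATA box that begins at base -117 from the start. The Col4a5 window held 1 CCAAT box and 1 GC box, the Col4a6 window 1 GC box, and the Col6a3 window none of the motifs. RefSeq windows matched 34 of the 43 members, with 37 windows. A GC box was found in 56.8% of them against 32.7% of all 32851 windows, a CCAAT box in 32.4% against 33.8%, a TATA box in 13.5% against 12.4%, an AP-1 site in 2.7% against 6.75% and a CArG box in 2.7% against 1.47%. These are letter matches within the windows and nothing more.

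The called collagen chains followed 3 main courses. Col12a1, Col8a1, Col6a3, Col5a2 and Col16a1 rose within 1 day and were higher at days 3 and 7 as well. The main fibrillar chains Col1a1, Col1a2, Col3a1 and Col5a1 passed the test at day 7 and not at day 1 or 3. Col4a6, Col4a5 and Col18a1, chains of the basement membrane, were the 3 that fell at day 7. At day 1, 5 of 41 members rose and 1 fell, where 1.99% of all genes tested rose and 1.63% fell. At day 3, 7 rose and 2 fell, against 4.61% and 7.14% of all genes. At day 7, 19 of 41 rose and 3 fell, against 12.1% and 13.2% of all genes. The share of members that fell at days 3 and 7 was below that of all genes. Day 7 rises of at least 2-fold were called for 10 of the 41 members, against 4.44% of all genes. Falls of at least 2-fold were called for 3 of the 41, against 4.94%. On all 3 arrays of the day, every called member lay beyond all 3 day 0 arrays. Some members that were not called did so too, such as Col22a1 and Col25a1 at day 7. Such non-overlap is largely implied by a call, so it is no further support, and its share over all genes is not given here. The median change over the 41 members was 0.07, 0.19 and 0.32 at days 1, 3 and 7, against 0.01, 0.08 and 0.09 over all genes. The F test over the 3 days called 15 members, against 14.6% of all genes.

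**Figure D1:**
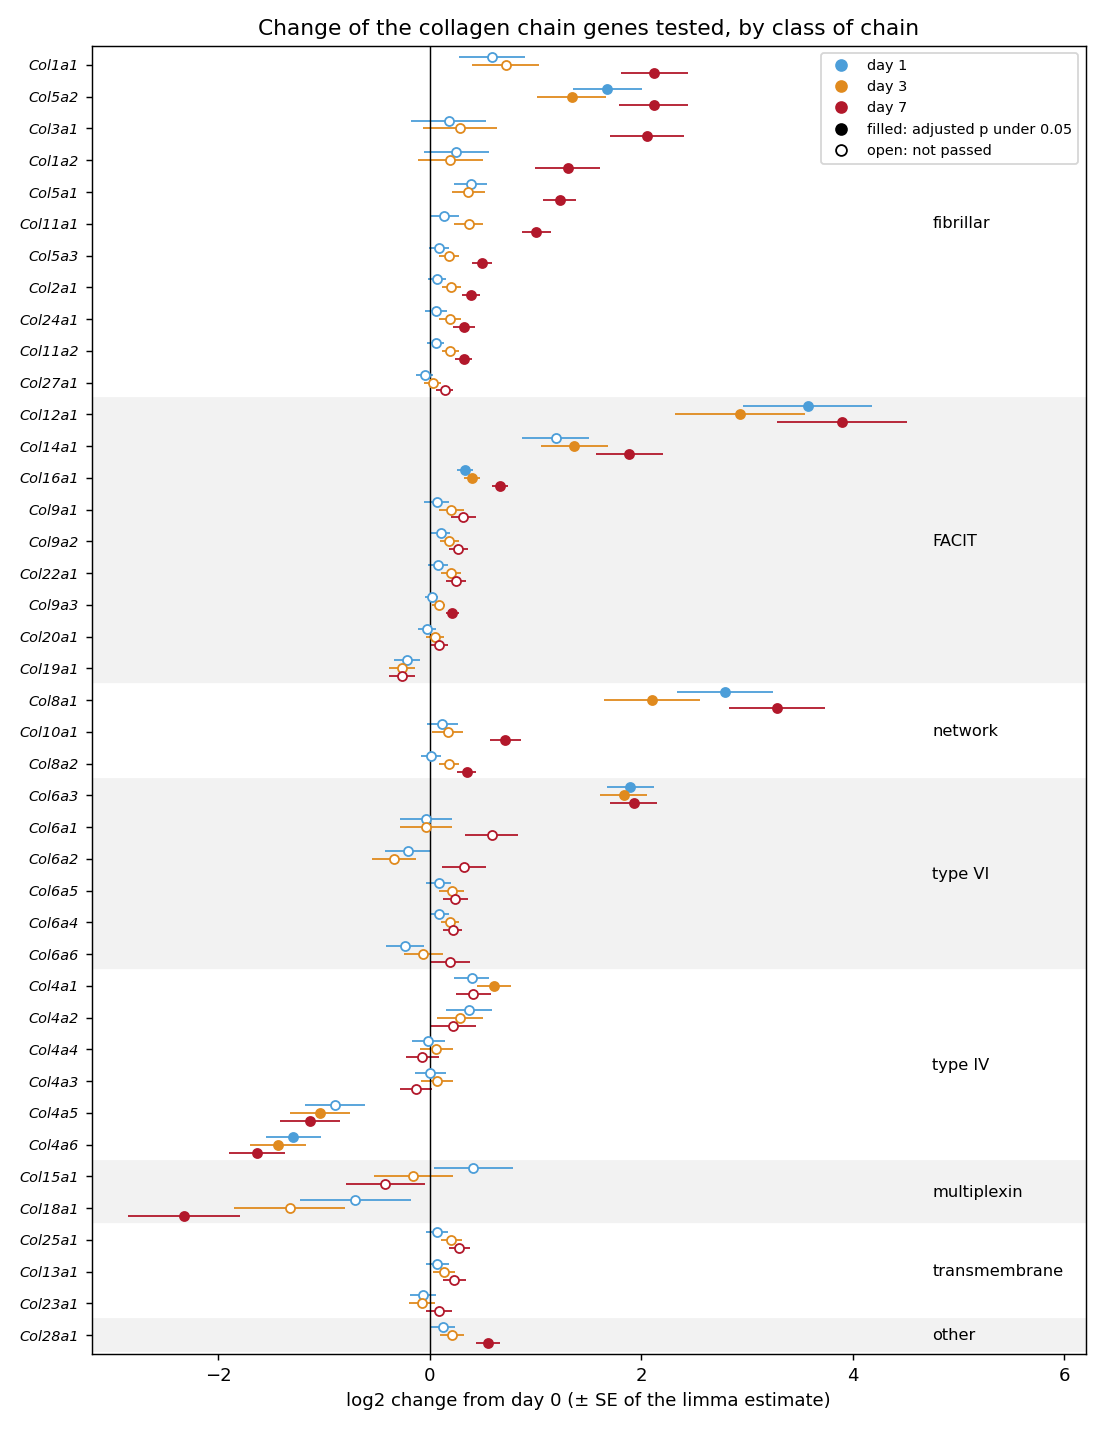
Log2 change from day 0 (x axis, ± SE of the limma estimate) of the 41 collagen chain genes tested, by class of chain, at day 1 (blue), day 3 (orange) and day 7 (red), with filled points for adjusted p under 0.05. Of the 11 fibrillar chains 10 are filled at day 7 and 1 at day 1, while Col4a5, Col4a6 and Col18a1 stand on the left.

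Scaling moved these counts. The median change of all genes at day 7 was 0.09 as deposited, -0.10 after quantile normalization and -0.18 with each array centred on its median. After quantile normalization 8 members rose and 4 fell at day 7, 4 rose and 1 fell at day 3, and 4 rose and 0 fell at day 1. Of all genes 5.69%, 2.47% and 1.21% then rose at days 7, 3 and 1, and 18.7%, 5.75% and 0.752% fell. With arrays centred, 12 members rose and 4 fell at day 7, 4 and 2 at day 3, and 4 and 1 at day 1. Here 5.73%, 2.14% and 1.31% of all genes rose at days 7, 3 and 1, and 21.9%, 7.16% and 0.666% fell. Over all genes the share of rises among the calls at day 7 was 47.9% as deposited, 23.3% after quantile normalization and 20.7% with arrays centred. With the gap between control features as a covariate, 9 members rose and 0 fell at day 7, when 2.2% of all genes rose and 1.29% fell. The mean of 9 brown adipocyte markers ranged over 7.86 to 8.20 at day 0, 6.75 to 7.32 at day 1, 7.08 to 7.53 at day 3 and 6.65 to 7.72 at day 7, and that of 9 white adipocyte markers overlapped with day 0 at days 1 and 7. The brown adipocyte mean covers opposite moves as well. Of 8 brown markers tested, Dio2 rose by 2.01 at day 1 and 2.00 at day 3. At these days 3 and 4 of them fell, with Ucp1 at -5.45 at day 1. With the mean of both adipocyte lists as a covariate 0 members rose and 0 fell at days 1 and 3, and 13 rose and 2 fell at day 7. The calls over all genes were fewer as well, at 0 in both directions at day 1 (2521 at an unadjusted p under 0.05), 11 higher and 19 lower at day 3, and 807 and 1480 at day 7. With that covariate the day 1 changes of Col12a1, Col8a1, Col6a3 and Col5a2 were 2.44, 2.43, 1.75 and 1.40. Most of the early calls were lost when single arrays were left out, with changes of similar size. Of the 5 rises at day 1, 1 was left (Col6a3) without any 1 of the 3 day 0 arrays or without day 1 replicate 1 or 2. The fall of Col4a6 at day 1 was lost without each of these 5 arrays and without day 3 replicate 2 or 3. For Col12a1, Col8a1, Col5a2 and Col16a1 the adjusted p of the lost day 1 calls reached 0.0812, 0.0732, 0.117 and 0.164, while with each array left out in turn their changes ranged over 3.24 to 3.97, 2.45 to 3.07, 1.53 to 1.84 and 0.28 to 0.38. Over all genes the 439 rises at day 1 became 182, 105 and 78 without day 0 replicates 1, 2 and 3. Of the 7 rises at day 3, 3, 2 and 1 were left without day 0 replicates 1, 2 and 3, and 2 and 1 without day 3 replicates 2 and 3. Of all genes 2.17%, 1.87%, 1.46%, 1.78% and 1.29% rose at day 3 without these arrays, in the same order. At day 7 the rises numbered 15 to 22 with each array left out in turn, and 16 of the 22 calls were kept throughout. The share of all genes that rose at day 7 ranged over 4.59% to 19.1% in the same way. The calls of Col24a1, Col9a3, Col11a2 and Col8a2 were lost without 9, 8, 4 and 4 of the 12 arrays, one at a time, beside those of Col1a2 and Col4a5 described with these genes.

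Among the fibrillar chains 1 of 11 rose at day 1, 1 at day 3 and 10 at day 7, against 1.99%, 4.61% and 12.1% of all genes. None fell, and the median change of the class was 0.13, 0.20 and 1.01. The day 7 calls of Col1a1, Col1a2, Col3a1, Col2a1, Col5a3, Col11a2 and Col24a1 were lost after quantile normalization. Type I collagen, the main fibril of the adventitia, is built from Col1a1 and Col1a2. Col1a1 had a log2 signal of 16.06, 14.68 and 15.66 at day 0 and 16.07, 16.12 and 15.96 at day 1. Col1a1 then read 16.22, 16.20 and 16.12 at day 3 and 17.10, 17.85 and 17.81 at day 7. Day 7 lay above the other 9 arrays, while the day 0 arrays spread over more than a unit, with replicate 2 the lowest. The change was 0.59 ± 0.32 (adjusted p = 0.426) at day 1, 0.72 ± 0.32 (adjusted p = 0.173) at day 3 and 2.12 ± 0.32 (adjusted p = 0.00285) at day 7, or 4.35-fold at day 7. Col1a2 read 15.61, 14.64 and 15.61 at day 0 and 15.44, 15.65 and 15.53 at day 1. Col1a2 then read 15.48, 15.65 and 15.32 at day 3 and 15.95, 16.94 and 16.88 at day 7. Again the 3 day 7 arrays were the highest and day 0 replicate 2 the lowest, and the change of Col1a2 was 0.25 ± 0.31 (adjusted p = 0.836), 0.19 ± 0.31 (adjusted p = 0.69) and 1.30 ± 0.31 (adjusted p = 0.0172) at days 1, 3 and 7. Without day 7 replicate 2 the day 7 change of Col1a2 was 1.13 and its adjusted p 0.0548.

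Col3a1 encodes the chain of type III collagen, which mixes with type I in elastic vessels and whose human counterpart is mutated in vascular Ehlers-Danlos syndrome. Its signal was 16.40, 15.63 and 16.43 at day 0 and 15.96, 16.76 and 16.27 at day 1. Col3a1 then read 16.11, 16.80 and 16.39 at day 3 and 17.55, 18.76 and 18.32 at day 7. Days 0, 1 and 3 overlapped and day 7 stood apart, with a change of 0.18 ± 0.35 (adjusted p = 0.931), 0.28 ± 0.35 (adjusted p = 0.607) and 2.06 ± 0.35 (adjusted p = 0.00487). The highest Col3a1 value, 18.76, lay under the ceiling of the scale at 19.93, which none of the collagen chains reached. Some other genes held a single lower value on many arrays, such as Dcn at 16.47 on 10 arrays and Sparc at 19.26 on 12. Col1a1 repeated 16.12 on 2 arrays and Col1a2 repeated 15.61 on 2. Whether the signal of the brightest chains was limited under the ceiling was not tested. After quantile normalization Col1a1, Col3a1 and Col1a2 had day 7 changes of 1.15, 1.14 and 0.33, with adjusted p of 0.128, 0.171 and 0.653, and were not called.

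Type V collagen is a minor component inside type I fibrils that sets their diameter, and its chains passed the test at different days. Col5a2 had 9.50, 9.34 and 9.37 at day 0 and 11.13, 11.37 and 10.75 at day 1. Col5a2 then read 10.15, 10.97 and 11.12 at day 3 and 10.83, 11.83 and 11.90 at day 7. All 9 treated arrays lay above the day 0 arrays, and Col5a2 was higher by 1.68 ± 0.33 (adjusted p = 0.0274), 1.34 ± 0.33 (adjusted p = 0.0299) and 2.12 ± 0.33 (adjusted p = 0.00318) at days 1, 3 and 7. Col5a1 had 7.89, 7.81 and 7.91 at day 0 and 8.07, 8.43 and 8.27 at day 1. Col5a1 then read 8.15, 8.36 and 8.20 at day 3 and 8.76, 9.41 and 9.13 at day 7. Here too the 9 treated arrays were above day 0, by smaller steps until day 7: 0.38 ± 0.15 (adjusted p = 0.244), 0.36 ± 0.15 (adjusted p = 0.159) and 1.23 ± 0.15 (adjusted p = 0.00153). Day 7 did not overlap with days 1 and 3.

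**Figure D2:**
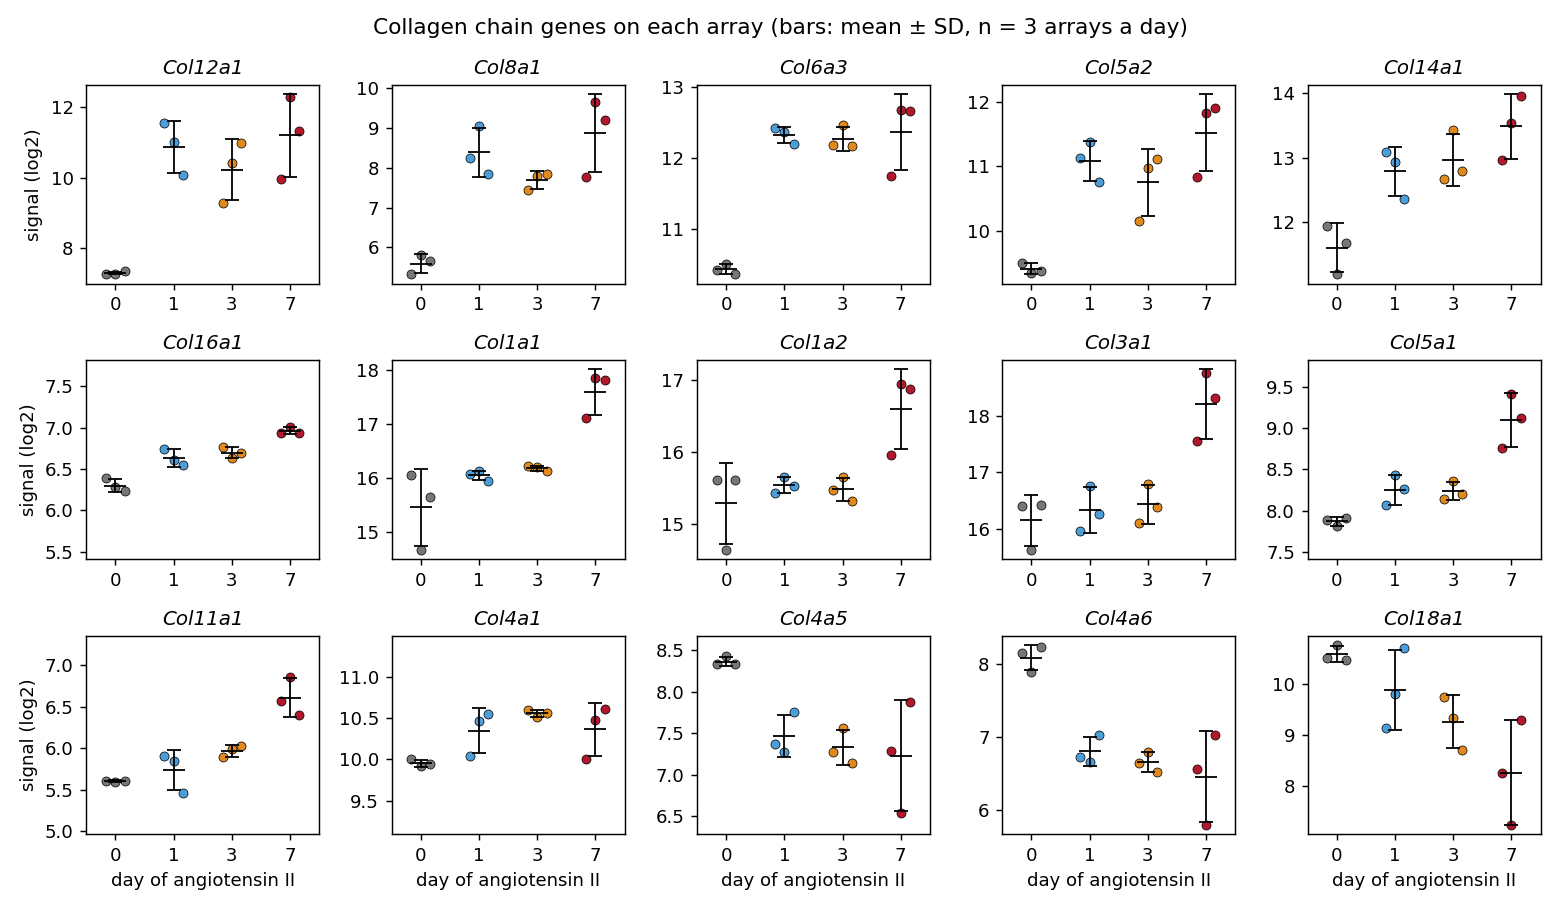
Log2 signal (y axis, its own range in each panel) of 15 collagen chain genes on each array at days 0, 1, 3 and 7 of angiotensin II (x axis), with the mean ± SD of the 3 arrays of a day. Col12a1, Col8a1, Col6a3 and Col5a2 are above day 0 from day 1 on, Col1a1, Col1a2 and Col3a1 stand out at day 7, and Col4a6 is below day 0 on all 9 treated arrays.

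The other fibrillar chains were dim. For those under the median of the negative control features on all 3 day 0 arrays and above it on at least 1 day 7 array, the fold is given as a lower bound, with that control median in place of the day 0 signal. These bounds, and those given further on, hold for the values as deposited and not for other scalings. The control median itself was 5.91 to 6.08 on the day 0 arrays and 6.06 to 6.14 on the day 7 arrays. Col11a1, a chain of type XI collagen that is best known from cartilage, had 5.61, 5.59 and 5.61 at day 0, 5.91, 5.84 and 5.46 at day 1, 5.89, 5.996 and 6.02 at day 3, and 6.56, 6.86 and 6.40 at day 7, and rose by 1.01 ± 0.14 (adjusted p = 0.00216) at day 7, at least 1.54-fold. Col2a1, the cartilage collagen, had 5.92, 5.86 and 5.85 at day 0, 6.06, 5.96 and 5.82 at day 1, 6.12, 6.06 and 6.06 at day 3, and 6.42, 6.16 and 6.22 at day 7, and rose by 0.39 ± 0.09 (adjusted p = 0.0134), at least 1.21-fold. The day 7 change of Col2a1 was 0.16 after quantile normalization and 0.11 with arrays centred, and it was called in neither. Of 8 chondrocyte markers 4 lay under the control median on all 3 arrays at day 0 and 7 at day 7, and 1 of the 6 tested, Comp, rose at day 7, against 12.1% of all genes.

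Col5a3, a further type V chain, had 5.76, 5.70 and 5.59 at day 0, 5.86, 5.82 and 5.63 at day 1, 5.87, 5.83 and 5.88 at day 3, and 6.22, 6.30 and 6.01 at day 7, and rose by 0.49 ± 0.09 (adjusted p = 0.00724) at day 7, at least 1.14-fold, with 2 of the 3 day 7 arrays above the control median. Col24a1, a fibrillar chain described from bone, had 5.02, 5.07 and 5.01 at day 0, 5.27, 5.09 and 4.93 at day 1, 5.20, 5.15 and 5.33 at day 3, and 5.46, 5.40 and 5.20 at day 7, with a day 7 change of 0.32 ± 0.10 (adjusted p = 0.0487). Col11a2 had 5.46, 5.40 and 5.38 at day 0, 5.57, 5.48 and 5.35 at day 1, 5.60, 5.59 and 5.63 at day 3, and 5.87, 5.70 and 5.62 at day 7, with a day 7 change of 0.32 ± 0.08 (adjusted p = 0.0237). Both Col24a1 and Col11a2 lay under the control median on all 12 arrays, so no fold is given for them. The exception among the fibrillar chains was Col27a1, whose 12 values lay between 6.07 and 6.49, with a day 7 change of 0.14 ± 0.08 (adjusted p = 0.196) that turned below 0 after quantile normalization or with arrays centred.

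Among the FACIT chains 2, 3 and 4 of 9 rose at days 1, 3 and 7, against 1.99%, 4.61% and 12.1% of all genes. None fell, and the median change was 0.07, 0.20 and 0.27. Col12a1 had the largest measured change of the collagen chains at each day, though Col8a1, under the control median at day 0, has only a lower bound and cannot be ranked against it. Type XII collagen coats type I fibrils in tissue under load. Col12a1 had 7.28, 7.28 and 7.35 at day 0 and 11.54, 11.002 and 10.08 at day 1. Col12a1 then read 9.29, 10.43 and 10.98 at day 3 and 9.97, 12.30 and 11.34 at day 7. The 3 day 0 arrays agreed within 0.1 and the 9 treated arrays all lay above them, though the treated days each spread by more than a unit. The change of Col12a1 was 3.57 ± 0.61 (adjusted p = 0.0186), 2.93 ± 0.61 (adjusted p = 0.0181) and 3.90 ± 0.61 (adjusted p = 0.00351) at days 1, 3 and 7, or 11.9-fold, 7.63-fold and 14.9-fold. Without day 7 replicate 1 the day 7 change of Col12a1 was 22.9-fold.

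Col14a1 encodes type XIV collagen, a close relative of type XII that regulates fibril growth. Its signal was 11.94, 11.19 and 11.68 at day 0 and 13.08, 12.93 and 12.36 at day 1. Col14a1 then read 12.68, 13.43 and 12.80 at day 3 and 12.96, 13.54 and 13.96 at day 7. All treated arrays were above day 0, and the change was 1.19 ± 0.32 (adjusted p = 0.0782) at day 1, 1.36 ± 0.32 (adjusted p = 0.0263) at day 3 and 1.88 ± 0.32 (adjusted p = 0.00468) at day 7. Col16a1, the chain of type XVI collagen, had 6.39, 6.28 and 6.23 at day 0 and 6.75, 6.61 and 6.55 at day 1. Col16a1 then read 6.77, 6.63 and 6.70 at day 3 and 6.94, 7.01 and 6.94 at day 7. Its replicates were tight and its change was small at each day: 0.33 ± 0.08 (adjusted p = 0.0449), 0.40 ± 0.08 (adjusted p = 0.013) and 0.66 ± 0.08 (adjusted p = 0.00123).

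Col9a3, a chain of the cartilage collagen type IX, had 5.31, 5.25 and 5.25 at day 0, 5.35, 5.27 and 5.24 at day 1, 5.34, 5.37 and 5.35 at day 3, and 5.57, 5.45 and 5.43 at day 7, under the control median on all 12 arrays. It passed at day 7 with 0.21 ± 0.06 (adjusted p = 0.0347), and its sign turned to -0.075 after quantile normalization and -0.062 with arrays centred, where it was not called. The remaining 5 FACIT chains, Col9a1, Col9a2, Col19a1, Col20a1 and Col22a1, passed at no day, with day 7 changes between -0.27 for Col19a1 and 0.32 for Col9a1. With the arrays quantile-normalized or centred, Col19a1 was called lower at day 7, with changes of -0.49 and -0.54.

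Network collagens are short chains that form hexagonal lattices. Col8a1 encodes a chain of type VIII collagen, made by endothelial and smooth muscle cells and known from injured arteries. Col8a1 had 5.32, 5.80 and 5.67 at day 0 and 8.26, 9.06 and 7.84 at day 1. Col8a1 then read 7.45, 7.80 and 7.85 at day 3 and 7.78, 9.65 and 9.21 at day 7. Day 0 was under the control median on all 3 arrays and the 9 treated arrays were above it. The measured difference was 2.79 ± 0.45 (adjusted p = 0.0158), 2.10 ± 0.45 (adjusted p = 0.0202) and 3.29 ± 0.45 (adjusted p = 0.00223), which as a lower bound is at least 5.28-fold, 3.27-fold and 7.43-fold at days 1, 3 and 7.

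The other type VIII chain, Col8a2, stayed under the control median on all 12 arrays, with 5.24, 5.17 and 5.37 at day 0 and 5.36, 5.24 and 5.21 at day 1. Col8a2 then read 5.42, 5.45 and 5.46 at day 3 and 5.76, 5.61 and 5.45 at day 7. It passed at day 7 with 0.35 ± 0.09 (adjusted p = 0.0247). Col10a1, the collagen of hypertrophic cartilage, was also under the control median throughout, with 5.05, 4.94 and 5.25 at day 0 and 5.17, 5.11 and 5.30 at day 1. Col10a1 then read 4.997, 5.43 and 5.31 at day 3 and 6.01, 5.79 and 5.57 at day 7. Day 7 lay above the other days, with 0.71 ± 0.14 (adjusted p = 0.00973). Col28a1, a chain known from peripheral nerve and outside the main classes, had 5.47, 5.54 and 5.22 at day 0, 5.58, 5.65 and 5.36 at day 1, 5.72, 5.53 and 5.59 at day 3, and 6.03, 6.03 and 5.82 at day 7 and a day 7 change of 0.55 ± 0.11 (adjusted p = 0.00991), again under the control median. Nerve and Schwann cell markers did not pass at day 7 (0 of 4 tested), when 12.1% of all genes rose. At each day 3 of the 5 measured lay under the control median on all arrays of that day. Whether nerve had a part in the Col28a1 change was not tested.

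Type VI collagen assembles from Col6a1, Col6a2 and one more chain, most often Col6a3, into beaded filaments that link cells to the matrix. Of the 6 type VI genes only Col6a3 passed, at every treated day. Over all genes 1.99%, 4.61% and 12.1% rose at days 1, 3 and 7. Col6a3 had 10.43, 10.51 and 10.36 at day 0 and 12.42, 12.37 and 12.20 at day 1. Col6a3 then read 12.18, 12.46 and 12.16 at day 3 and 11.74, 12.68 and 12.67 at day 7. All treated arrays lay more than a unit above day 0, with 1.89 ± 0.22 (adjusted p = 0.00549), 1.83 ± 0.22 (adjusted p = 0.00301) and 1.93 ± 0.22 (adjusted p = 0.00123) at days 1, 3 and 7, or 3.71-fold, 3.56-fold and 3.81-fold. Col6a1 had 10.07, 9.61 and 10.26 at day 0 and 9.70, 9.92 and 10.21 at day 1. Col6a1 then read 10.08, 9.97 and 9.76 at day 3 and 10.07, 11.001 and 10.60 at day 7. Its days overlapped, and the changes were -0.04 ± 0.25 (adjusted p = 0.999), -0.04 ± 0.25 (adjusted p = 0.933) and 0.58 ± 0.25 (adjusted p = 0.103).

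Col6a2 had 9.46, 8.96 and 9.38 at day 0 and 8.82, 8.97 and 9.38 at day 1. Col6a2 then read 9.23, 8.81 and 8.75 at day 3 and 9.29, 9.82 and 9.66 at day 7. It overlapped between every day and day 0, with -0.21 ± 0.21 (adjusted p = 0.765), -0.34 ± 0.21 (adjusted p = 0.311) and 0.32 ± 0.21 (adjusted p = 0.259). The later-described chains Col6a4, Col6a5 and Col6a6 passed at no day, with day 7 changes of 0.21, 0.24 and 0.19 that turned below 0 with arrays centred, and Col6a4 and Col6a5 lay under the control median on all arrays. The difference Col6a3 minus Col6a1 within an array was larger than at day 0 by 1.93 at day 1, 1.87 at day 3 and 1.35 at day 7. Col6a3 minus Col6a2 was larger by 2.10, 2.17 and 1.61. These differences did not overlap with day 0 on any array (exact two-sided permutation test, p = 0.1, adjusted over the 18 tests of 6 chain pairs 0.106). The pairs were chosen after the values were seen and 3 against 3 arrays cannot pass 0.05, so the differences are a description.

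**Figure D3:**
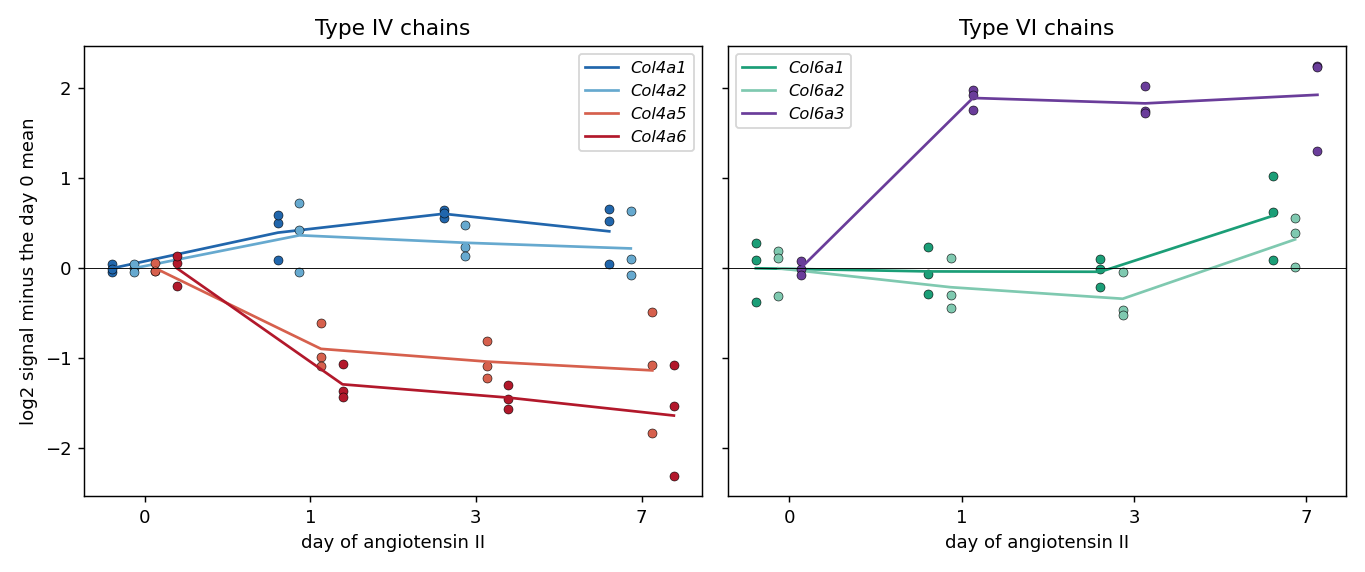
Log2 signal minus the day 0 mean of the same gene (y axis) on each array at days 0, 1, 3 and 7 of angiotensin II (x axis), with lines through the means, for 4 type IV chains (left) and 3 type VI chains (right). Col4a5 and Col4a6 lie below 0 on all treated arrays while Col4a1 lies above it, and Col6a3 lies above Col6a1 and Col6a2 at every treated day.

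Type IV collagen exists as a common form of Col4a1 and Col4a2, a form of Col4a3, Col4a4 and Col4a5 best known from the kidney glomerulus, and a form that pairs Col4a5 with Col4a6, which is found in smooth muscle basement membranes. Of the 6 genes 0, 1 and 0 rose at days 1, 3 and 7, and 1, 2 and 2 fell. Over all genes 1.99%, 4.61% and 12.1% rose and 1.63%, 7.14% and 13.2% fell. Col4a6 had 8.15, 7.89 and 8.23 at day 0 and 6.73, 6.66 and 7.02 at day 1. Col4a6 then read 6.64, 6.80 and 6.52 at day 3 and 6.56, 5.79 and 7.02 at day 7. All treated arrays were below day 0, with changes of -1.29 ± 0.26 (adjusted p = 0.0317), -1.44 ± 0.26 (adjusted p = 0.0117) and -1.64 ± 0.26 (adjusted p = 0.00389) at days 1, 3 and 7, that is 2.45-fold, 2.71-fold and 3.11-fold lower. Its day 3 call was lost without day 3 replicate 3. Col4a5 had 8.33, 8.43 and 8.34 at day 0 and 7.37, 7.27 and 7.76 at day 1. Col4a5 then read 7.28, 7.56 and 7.14 at day 3 and 7.29, 6.53 and 7.87 at day 7. It too was below day 0 on all 9 treated arrays, with -0.90 ± 0.29 (adjusted p = 0.132), -1.04 ± 0.29 (adjusted p = 0.0456) and -1.14 ± 0.29 (adjusted p = 0.0221). Its day 7 call was lost without any day 0 array or day 7 replicate 1, and its day 3 call without 9 of the 12 arrays, one at a time.

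Col4a1 had 9.999, 9.92 and 9.94 at day 0 and 10.04, 10.46 and 10.54 at day 1. Col4a1 then read 10.60, 10.51 and 10.56 at day 3 and 10.003, 10.48 and 10.61 at day 7. The 9 treated arrays were above day 0, and the change passed at day 3: 0.40 ± 0.17 (adjusted p = 0.264), 0.61 ± 0.17 (adjusted p = 0.0442) and 0.41 ± 0.17 (adjusted p = 0.0886). That call was lost without any day 0 or day 3 array, day 1 replicate 2 or day 7 replicate 2, with adjusted p of 0.0545 to 0.130. Col4a2, whose start lies 21 bases from that of Col4a1 on the opposite strand in RefSeq, had 9.86, 9.90 and 9.81 at day 0 and 9.81, 10.28 and 10.58 at day 1. Col4a2 then read 10.33, 10.09 and 9.99 at day 3 and 9.78, 9.96 and 10.49 at day 7. Its changes of 0.37 ± 0.22 (adjusted p = 0.486), 0.28 ± 0.22 (adjusted p = 0.402) and 0.22 ± 0.22 (adjusted p = 0.447) did not pass. Col4a3 and Col4a4 did not pass either, with day 7 changes of -0.13 and -0.07. Within an array Col4a6 minus Col4a1 changed from day 0 by -1.69 at day 1, -2.04 at day 3 and -2.05 at day 7, without overlap (exact two-sided permutation test, p = 0.1, adjusted 0.106). The smooth muscle markers were lower over the same days, and their part in the falls of Col4a5 and Col4a6 was not tested.

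The multiplexins sit in or beside basement membranes. Col18a1, whose C-terminal fragment endostatin limits vessel growth, had 10.51, 10.77 and 10.47 at day 0 and 9.14, 9.79 and 10.70 at day 1. Col18a1 then read 9.74, 9.32 and 8.71 at day 3 and 8.25, 7.23 and 9.29 at day 7. Each day 7 array was below day 0, the 3 day 7 arrays spread over more than 2 units, and the change was -0.71 ± 0.53 (adjusted p = 0.627), -1.33 ± 0.53 (adjusted p = 0.138) and -2.32 ± 0.53 (adjusted p = 0.0147), or 5.01-fold lower at day 7. Col15a1, its relative, overlapped with day 0 at each day, with 0.41 ± 0.37 (adjusted p = 0.728), -0.16 ± 0.37 (adjusted p = 0.796) and -0.42 ± 0.37 (adjusted p = 0.398). Of the transmembrane chains Col13a1, Col23a1 and Col25a1 were tested and passed at no day, with day 7 changes of 0.23, 0.09 and 0.28 that turned below 0 after quantile normalization.

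The same within-array difference is given for type I and type V chains. Col1a1 minus Col1a2 was larger than at day 0 by 0.33 at day 1, where it overlapped with day 0 (exact two-sided permutation test, p = 0.2), by 0.52 at day 3 and by 0.82 at day 7. Col5a2 minus Col5a1 was larger by 1.29, 0.98 and 0.89 at days 1, 3 and 7, without overlap (exact two-sided permutation test, p = 0.1, adjusted 0.106). No difference is given for Col8a1 and Col8a2, since Col8a2 lay under the control median on all 12 arrays.

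The members spread over the whole range of signal. Genes with a mean log2 signal of 5 to 6 had a median day 7 change of 0.25, and 13.6% of them rose. In that range lay 16 members, of which 8 rose, with a median of 0.30. Genes with a signal of 11 to 20 had a median change of 0, and 17.5% of them rose, while all 5 members there rose, with a median of 1.93: Col1a1, Col1a2, Col3a1, Col6a3 and Col14a1. Of genes with a signal of 7 to 9, 24.0% fell at day 7, and 2 of 4 members there (Col4a5 and Col4a6). With a signal of 9 to 11, 28.9% of genes fell, and 1 of 8 members (Col18a1). Of the 19 members that rose at day 7, 6 lay under the control median on all arrays of both groups (Col10a1, Col11a2, Col24a1, Col28a1, Col8a2 and Col9a3).

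**Figure D4:**
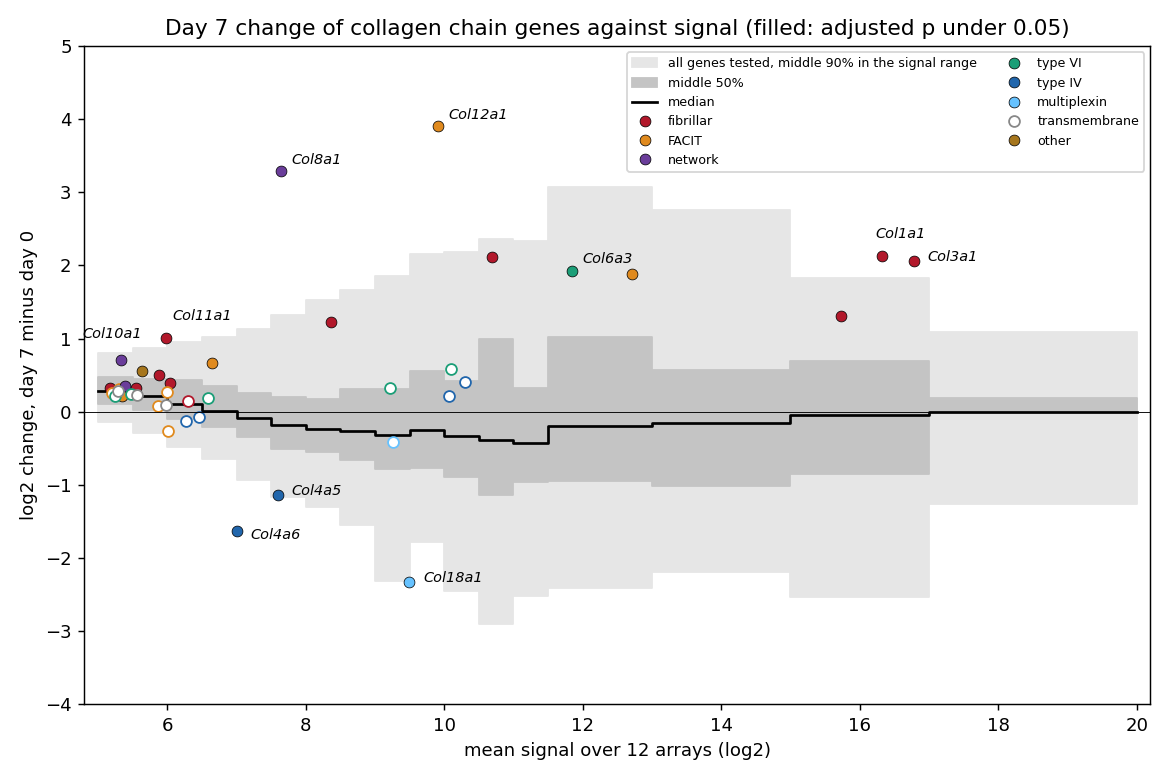
Log2 change at day 7 from day 0 (y axis) against the mean log2 signal over 12 arrays (x axis) for the 41 collagen chain genes tested, coloured by class and filled where adjusted p was under 0.05, over the middle 90% and 50% (grey) and the median (line) of all genes in each signal range. Most dim members lie close to the raised median of dim genes, while Col12a1, Col8a1, Col1a1, Col3a1, Col4a6 and Col18a1 lie far from it.

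Between treated days, no collagen chain was called. For day 3 minus day 1 the counts were 0 higher and 0 lower, as for all genes (0.0% in each direction by limma), and 0 members had an unadjusted p under 0.05, against 1776 of all genes. For day 7 minus day 3, 0 were called, against 0.113% higher and 0.154% lower of all genes, and 13 of the 41 members had an unadjusted p under 0.05, all higher at day 7, against 2853 of all genes (12.9%). Col3a1 was higher at day 7 than at day 3 by 1.77 ± 0.35 (adjusted p = 0.0861), Col1a1 by 1.41 ± 0.32 (adjusted p = 0.115), Col1a2 by 1.11 ± 0.31 (adjusted p = 0.175) and Col5a1 by 0.86 ± 0.15 (adjusted p = 0.063). Without day 7 replicate 1, which had the smallest gap between control features of the 12 (1.20), 3 of these were called: Col3a1 at 2.10, Col1a2 at 1.43 and Col5a1 at 1.03. That array was also the lowest of its day for Col12a1, Col8a1, Col6a3, Col5a2, Col1a1, Col1a2 and Col3a1.

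The genes that fold, trim and cross-link collagen did not move as 1 group. Beside the counts of these lists and of the receptors, 1.99%, 4.61% and 12.1% of all genes rose at days 1, 3 and 7. The shares that fell were 1.63%, 7.14% and 13.2%. Of 19 tested genes of folding, modification and secretion, 0 were called at days 1 and 3, and at day 7 1 rose and 4 fell, with median changes of 0.20, 0.22 and -0.17. P4ha3, a prolyl hydroxylase subunit, rose by 0.92 ± 0.22 (adjusted p = 0.0171), at least 1.38-fold. It lay under the control median on all 3 day 0 arrays and above it on 2 of the 3 day 7 arrays. The prolyl 3-hydroxylase P3h2 changed by -1.32 ± 0.31 (adjusted p = 0.0175) and Crtap, the partner of prolyl 3-hydroxylase, by -1.02 ± 0.19 (adjusted p = 0.00716). P3h4, a related protein, changed by -0.75 ± 0.17 (adjusted p = 0.0136) and Creb3l1, a transcription factor that acts on type I collagen in bone, by -0.52 ± 0.12 (adjusted p = 0.0145). Serpinh1, the collagen chaperone, had 0.66 ± 0.27 (adjusted p = 0.0907) at day 7 and did not pass.

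Of 20 tested genes of procollagen processing, fibril assembly and cross-linking, 3 rose and 0 fell at day 1, 5 and 3 at day 3, and 6 and 2 at day 7, with median changes of 0.17, 0.13 and 0.14. Among them Sparc, Bgn and Dcn repeated a single value on 12, 11 and 10 arrays, so a change in these genes could go unseen. Lox, the lysyl oxidase that cross-links fibrils, had 10.70, 9.97 and 10.39 at day 0 and 12.79, 13.43 and 12.62 at day 1. Lox then read 13.11, 12.95 and 13.84 at day 3 and 11.58, 12.29 and 12.74 at day 7. It was higher by 2.59 ± 0.36 (adjusted p = 0.0093), 2.94 ± 0.36 (adjusted p = 0.00301) and 1.85 ± 0.36 (adjusted p = 0.00769) at days 1, 3 and 7. Lum, a proteoglycan on fibrils, rose by 3.10 ± 0.45 (adjusted p = 0.00267) at day 7, and Bmp1, the protease that removes the C-propeptide, by 0.97 ± 0.22 (adjusted p = 0.0152). Thbs2, a matrix protein needed for regular fibrils, had 8.57, 8.90 and 8.63 at day 0 and 8.02, 8.002 and 7.79 at day 1. Thbs2 then read 7.40, 8.14 and 7.59 at day 3 and 9.37, 10.40 and 10.26 at day 7. It changed by -0.99 ± 0.27 (adjusted p = 0.0446) at day 3 and by 1.31 ± 0.27 (adjusted p = 0.0103) at day 7, and it was 1 of the 25 genes higher at day 7 than at day 3, by 2.30 ± 0.27 (adjusted p = 0.015). Pcolce2, an enhancer of propeptide removal, changed by -2.21 ± 0.31 (adjusted p = 0.00233) and Tnxb, a glycoprotein that binds fibrils, by -1.50 ± 0.35 (adjusted p = 0.0175) at day 7.

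Of 11 tested collagen receptors and uptake genes, 2 rose and 0 fell at day 1, 1 and 1 at day 3, and 4 and 3 at day 7, with median changes of 0.13, 0.34 and 0.47. Mrc2, an uptake receptor for collagen, rose by 0.83 ± 0.15 (adjusted p = 0.0242), 0.82 ± 0.15 (adjusted p = 0.0127) and 1.14 ± 0.15 (adjusted p = 0.002) at days 1, 3 and 7. At day 7 Itga11 and Itga2, alpha chains of collagen-binding integrins, rose by 1.02 ± 0.14 (adjusted p = 0.00227) and 0.78 ± 0.17 (adjusted p = 0.0116), and Lair1, a collagen receptor of immune cells, by 1.05 ± 0.27 (adjusted p = 0.0224). All 3 lay under the control median on the day 0 arrays, so their rises are lower bounds of at least 1.85-fold for Itga11, 1.51-fold for Itga2 and 1.72-fold for Lair1. Itgb1, the beta chain that pairs with both integrins, changed by -2.52 ± 0.38 (adjusted p = 0.00303), and Ddr2, a receptor kinase for fibrillar collagen, by -2.02 ± 0.23 (adjusted p = 0.00121). Macrophage markers rose over the same days (9 of 11 at day 7), skeletal and cardiac muscle markers at day 7 (8 of 10, mean 5.84 to 5.97 at day 0, 5.98 to 6.07 at day 1, 6.00 to 6.10 at day 3 and 6.69 to 7.13 at day 7), and their part in the collagen changes was not tested.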

How the data were processed

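Vessel RNA of 12 mouse samples was hybridised to Affymetrix arrays, 3 at each of days 0, 1, 3 and 7. The deposited values are log2 signals per feature. The submitters' processing notes name Affymetrix Expression Console as the authors' software. The background correction, the normalization and the software version were each not given in the sources used here. An older Affymetrix mouse array stands in the labels, whereas the identifiers are transcript clusters of another design. The table's own identifiers were therefore used with the platform annotation, updated through RefSeq synonyms. No genome build is named with the values, and the only coordinates given are those of the RefSeq promoter windows.

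Of 72688 features 65956 were transcript clusters, 31258 of them with 1 symbol, 1492 with several and 33206 with none. For each of 30702 genes the cluster with the highest mean over 12 arrays was used as deposited, and 22066 genes with at least 3 of 12 arrays at the 40th percentile of all clusters (5.25) were tested. Tests used limma 3.58.1 in R 4.3.3, with a mean per day, all 12 arrays, empirical Bayes without trend and Benjamini-Hochberg adjustment over all genes tested. The code was tested on simulated data. Differences between chains and between control features used exact permutation tests in SciPy 1.17.1. The number of arrays limits the precision.

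Alternatives were quantile normalization, centred arrays, no filter and a filter at the 60th percentile, averaged clusters per gene, a variance trend with robust estimation, a replicate block, adipocyte markers or control features as a covariate, only the 6 arrays compared, and each array left out. The values of every array are given for called members and for chains of types I, III, IV (alpha 1 and 2) and VI (alpha 1 to 3). From each other list, up to 6 called genes with the largest change at day 7 are named. The members, the lists and the rule for named genes were chosen with earlier results of these data known. Comp, Serpinh1 and Col19a1 were named after their values were seen.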

Additional observations from a re-analysis of the deposited data

Results flagged for a closer look

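Col6a2 moved in opposite directions at 2 times. All 3 day 7 arrays lay above the day 0 mean, with a mean change of 0.32, and all 3 day 3 arrays lay below it, with a mean change of -0.34. Neither change passed the limma test against day 0 (adjusted p = 0.259 at day 7 and 0.311 at day 3). Both days overlapped with single day 0 arrays. Between them, the 3 day 7 arrays lay above the 3 day 3 arrays, by 0.66 ± 0.21, which did not pass in limma (adjusted p = 0.236).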

How the results depend on the processing

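Of the 22 calls at day 7, 5 were kept under every alternative (Col16a1, Col5a1, Col5a2, Col6a3 and Col8a1), and of the 6 and 9 calls at days 1 and 3 none were, each lost at least under the adipocyte covariate. The number higher at day 1 (5) became 0 with the adipocyte covariate, and the number lower (1) became 0 with quantile normalization, the adipocyte covariate and the control-feature covariate. The number higher at day 3 (7) became 4 with quantile normalization, 4 with centred arrays, 0 with the adipocyte covariate and 3 with the control-feature covariate. Of all genes 2.47%, 2.14%, 0.0499% and 1.23% rose at day 3 in these settings, against 4.61% as deposited. The number lower at day 3 (2) became 1 with quantile normalization, 1 without the filter, and 0 with either covariate. The number higher at day 7 (19) became 8 with quantile normalization, 12 with centred arrays and 9 with the control-feature covariate, under which the number lower (3) became 0. Of all genes 5.69%, 5.73% and 2.2% rose at day 7 in these settings, against 12.1% as deposited. The number higher at day 7 than at day 3 (0) became 1 with quantile normalization, 1 with the adipocyte covariate and 2 with the control-feature covariate. The F test's 15 members became 8 with quantile normalization and 5 with the control-feature covariate. The cause was not tested for any of these.

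With each array left out in turn, the number higher ranged over 1 to 5 at day 1, 1 to 7 at day 3 and 15 to 22 at day 7, and the number lower over 0 to 2, 0 to 2 and 2 to 3. Of all genes 0.29% to 2.57%, 1.29% to 6.51% and 4.59% to 19.1% rose at days 1, 3 and 7. The shares that fell were 0.168% to 2.7%, 1.89% to 9.34% and 7.89% to 14.8%. For day 7 minus day 3 the number of members ranged over 0 to 3 higher, with 0 lower, for day 3 minus day 1 it was 0, and for the F test it ranged over 7 to 18.

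In none of the pairs of days compared did every same-numbered pair of arrays have a correlation of deviations over 0.1. Over all days it ran from -0.506 to 0.662, with 7 of 18 over 0.1, against 10 of 36 for different numbers. Days 1 and 7, which were not compared, had 0.614, 0.364 and 0.662 for same numbers and -0.652 to 0.030 for different ones. With the replicate block, the numbers higher were 5, 7 and 20 at days 1, 3 and 7, the number lower at day 3 was 1, and 1 member (Col5a1) was higher at day 7 than at day 3.

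Of the 41 members, the sign of 6, 11 and 9 turned at days 1, 3 and 7 with quantile normalization and of 3, 9 and 11 with centred arrays. At day 7 the turned values lay between -0.17 and -0.0082 with quantile normalization and between -0.19 and -0.0066 with centred arrays, and Col9a3 alone had been called. Among the calls and the chains of types I, III, IV (alpha 1 and 2) and VI (alpha 1 to 3), these values turned. With quantile normalization, Col1a1 at day 3 was -0.016, Col1a2 -0.012 at day 1 and -0.48 at day 3, Col3a1 -0.15 at day 1 and -0.32 at day 3, Col6a1 0.057 at day 1, and Col9a3 -0.075 at day 7. With centred arrays, Col4a2 was -0.055 and Col9a3 -0.062 at day 7. With the adipocyte covariate, Col6a1 was 0.15 at day 1 and 0.13 at day 3, and Col6a2 0.081 at day 1. With the control-feature covariate, Col6a1 was 0.23 at day 1 and 0.44 at day 3, and Col6a2 0.0033 at day 1 and 0.045 at day 3. With each array left out in turn, Col1a2 ranged over -0.071 to 0.41 at day 1 and -0.13 to 0.35 at day 3, Col3a1 over -0.084 to 0.36 at day 1, and Col6a1 over -0.22 to 0.10 at day 1 and -0.23 to 0.10 at day 3.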
